A study of Danio rerio with 6 samples.

Results

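Transcripts of the machinery that shortens poly(A) tails, removes the 5′ cap and assembles processing bodies (P-bodies) were examined in RNA recovered with the zebrafish protein Tdrd6a and in input RNA. The members were chosen by name from a list of 36 factors. Of these names, 29 were found among the 21051 genes of the table, and all 29 had a row with a mean of at least 10 normalized counts over the 6 libraries, the minimum that left 13265 genes for testing. The row nearest to that minimum was zfp36l1b, with a mean of 11.9, and a second row named dcp2 (ENSDARG00000089419) was listed at 0 in every library and left out. The other 7 names did not appear in the table. Of these, 4 matched rows that carry clone names, and their values are given apart from the members. The names dcp1a and cnot4a matched no row, and RefSeq gives cnot6 as a synonym of cnot6a, so the row named cnot6 was taken once.

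There were 3 Tdrd6a immunoprecipitate libraries (Tdrd6a IP, replicates 1, 2 and 3) and 3 input libraries (Input, replicates 1, 2 and 3). The sample labels call all 6 zebrafish zygotes, whereas the submitters' series-level design note mentions ovary. The labels were followed. They give no strain, genotype or treatment and do not name the clutch behind a replicate. The p-values therefore describe variation from library to library, part of which may be technical, and with no mock precipitate among the libraries analysed here the only baseline is input. Tdrd6a carries Tudor domains and is found in germ plasm, the cytoplasm that founds the germ line. The comparison asks which RNAs are higher or lower with it than in input, after the deposited scaling between libraries. Scaling by library size only, which compares shares of reads, was an alternative setting.

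Shortening of the poly(A) tail is the usual first step of mRNA decay. It is carried out by the PAN2-PAN3 complex and by CCR4-NOT, a large complex built on the scaffold CNOT1, whose catalytic module holds a Caf1-type and a Ccr4-type nuclease. Decapping by DCP2 and digestion by XRN1 follow, and DDX6, LSM14 proteins and 4E-T hold transcripts in a repressed state in P-bodies and related granules. In eggs and zygotes many maternal mRNAs are stored with short tails and are removed when the zygotic genome becomes active, and CCR4-NOT takes part in that removal.

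Recovered reads totalled 22466764, 4031863 and 9701595 in IP replicates 1, 2 and 3 and 10481205, 16048024 and 19804774 in input replicates 1, 2 and 3, so that 1 read was worth 3.76 normalized counts in IP replicate 2, the shallowest library, and 0.682 to 1.21 in the others. All 11 egg and zygote marker rows exceeded the minimum mean, against 1 of 6 early zygotic, 1 of 4 ovarian follicle, 0 of 3 blood and 0 of 3 muscle rows, and the follicle marker cyp19a1a was at 0 throughout. The follicle row above the minimum was gsdf, with 13.2, 26.3 and 24.1 normalized counts in IP and 38.1, 8.8 and 37.5 in input. The summed follicle markers were 18.1 to 26.3 normalized counts in IP and 8.80 to 39.2 in input. The early zygotic row above the minimum was cxcr4b, a receptor gene that primordial germ cells also use. The germ plasm transcript ca15b had 446884, 653413 and 214665 normalized counts in IP replicates 1, 2 and 3, against 5670, 3252 and 5603 in input, so its enrichment was strongest in IP replicate 2 and weakest in IP replicate 3. The transcript of the precipitated protein, tdrd6, had 8445, 1384 and 7708 normalized counts in IP and 2679, 2854 and 2849 in input and was not called (log2 fold change 0.68 ± 0.64 SE, limma adjusted p = 0.607).

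With group as the only term, the 3 transcripts that limma called higher in the Tdrd6a IP encode catalytic subunits of CCR4-NOT, namely cnot7, cnot8 and cnot6, and the one called lower was lsm14aa, which encodes an LSM14 translational repressor. With the replicate number as a block, 5 were called higher, of which cnot7 and cnot8 encode CCR4-NOT nucleases while cnot6 was not called, and the others were ddx6, lsm14ab and xrn1, with lsm14aa again lower (6.97% of all genes tested were higher and 3.52% lower with the block). Among the 29 members, 3 were higher, 1 was lower and 25 were not called at a limma adjusted p under 0.05. Over all genes tested, 4.46% were higher and 1.86% were lower. Whether the counts called among 29 genes differ from these shares was not tested, here or with the other settings. DESeq2 called 8 members higher and 1 lower, against 8.01% and 4.25% of all genes tested. The median log2 fold change of the members was 0.02, beside -0.01 for all genes tested. The members split almost evenly by direction, with 15 estimates above 0 and 14 below (14 and 15 with library size only or TMM scaling). In 10 members every IP library was above every input library, and in 6 every IP library was below, against 14.6% and 12.9% of all genes tested. An unadjusted p under 0.05 was reached by 13 members and by 21.2% of all genes tested.

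**Figure D1:**
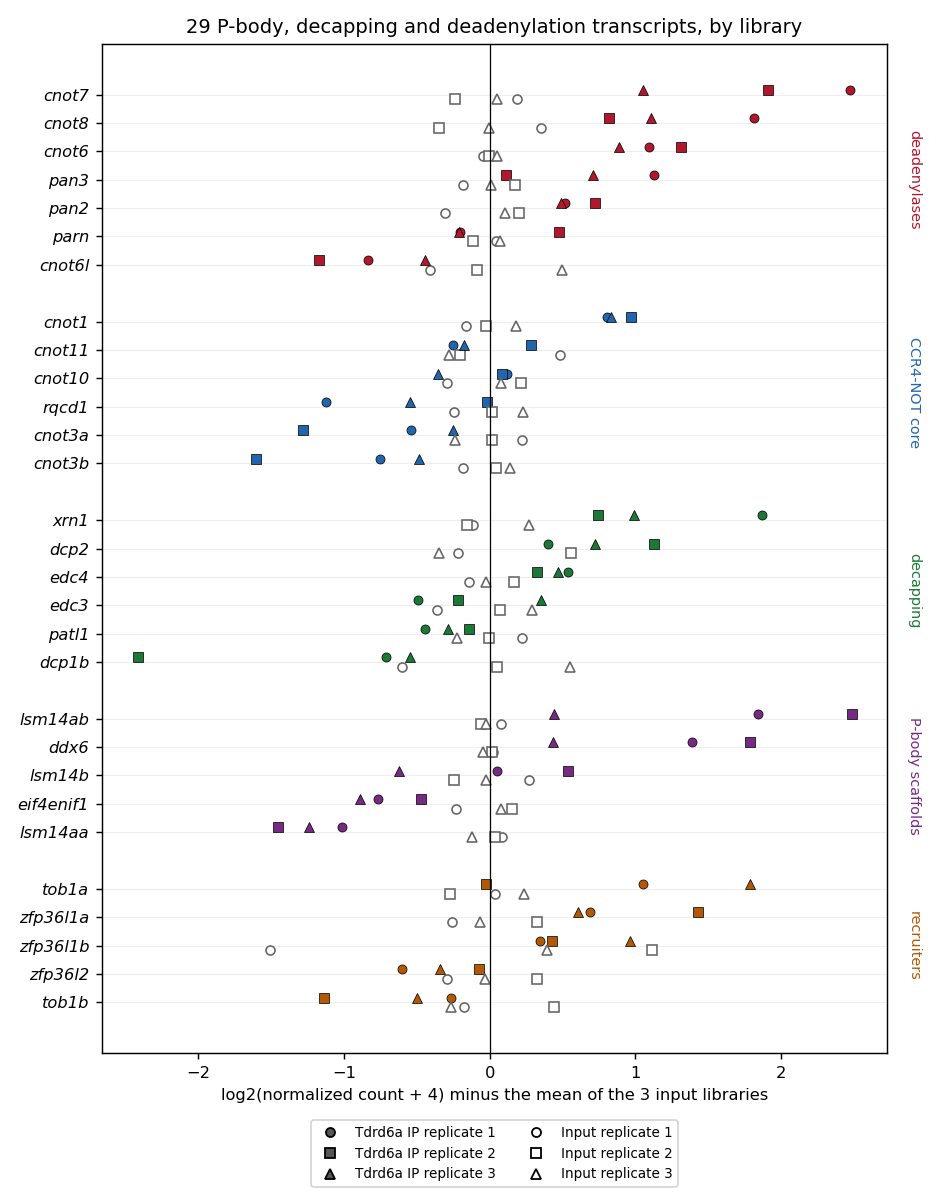
Each row is 1 transcript. The x axis gives log2(normalized count + 4) minus the mean of the 3 input libraries, with filled symbols for Tdrd6a IP and open symbols below them for input. The 3 IP libraries of cnot7, cnot8 and cnot6 lie above all input libraries and those of lsm14aa lie below them.

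Deadenylases had a median of 0.65 on the log2 scale, and 6 of the 7 tested members had estimates above 0 (5 with library size only or TMM scaling, where parn was below 0). Over all genes tested, 6577 of 13265 had estimates above 0. limma called 3 of the 7 higher (4.46% of all genes), and 3 had an unadjusted p under 0.05 (21.2% of all genes). In 4 every IP library was above every input library and in 1 every IP library was below, against 14.6% and 12.9% of all genes. The transcript of cnot7 (ENSDARG00000032116), which encodes a Caf1-type nuclease of CCR4-NOT, had 2896, 1963 and 1082 normalized counts in IP replicates 1, 2 and 3, against 593, 439 and 538 in input. The groups did not overlap, and the lowest IP library was still well above the highest input library. The mean was 1980 ± 907 (SD, n = 3) in IP and 523 ± 78.0 in input, a log2 fold change of 1.81 ± 0.35 (SE), or 3.51-fold (limma adjusted p = 0.0148). Of all genes tested, 96.6% had a lower log2 fold change.

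Its paralog cnot8 (ENSDARG00000020043), which encodes the alternative Caf1-type subunit of the same module, had 4016, 2008 and 2450 normalized counts in IP and 1453, 894 and 1135 in input. The groups were again separate, by a smaller margin. The log2 fold change was 1.25 ± 0.32, or 2.37-fold (limma adjusted p = 0.0439). The transcript of cnot6 (ENSDARG00000008255), which encodes a Ccr4-type nuclease, had 22664.5, 26397.5 and 19645 normalized counts in IP and 10300.3, 10587 and 10984 in input. Both groups were tight and lay about a doubling apart, with a log2 fold change of 1.10 ± 0.27, or 2.14-fold (limma adjusted p = 0.0365). With the replicate number as a block, cnot6 was not called (limma adjusted p = 0.0699), whereas cnot7 and cnot8 were (0.00343 and 0.0142).

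The other Ccr4-type gene among the members tested, cnot6l, had values on the opposite side. It had 149, 117 and 195 normalized counts in IP and 201, 252 and 378 in input. Its groups were only just separate (log2 fold change -0.82 ± 0.37, limma adjusted p = 0.238). A further Ccr4-type gene, cnot6b, is listed under a clone name and had an estimate of -0.01 ± 0.29. Both subunits of the PAN2-PAN3 complex, which trims long tails first, had positive estimates that were not called. The nuclease gene pan2 had 906, 1045 and 889 normalized counts in IP and 510.0, 729 and 681 in input, with no overlap (0.58 ± 0.26, limma adjusted p = 0.240). Its partner pan3 had 10622, 5268 and 7959 in IP and 4285, 5480.1 and 4906 in input, so that IP replicate 2 lay within the input range (0.65 ± 0.31, limma adjusted p = 0.258). The gene of the poly(A)-specific ribonuclease Parn had an estimate near 0, with 6121, 9817 and 6102 normalized counts in IP and 7278, 6518 and 7416 in input (0.02 ± 0.28, 95% interval -0.61 to 0.65). As a share of all reads, the 7 deadenylase transcripts took 0.303%, 0.308% and 0.327% in IP replicates 1, 2 and 3 and 0.210%, 0.211% and 0.193% in input. The most abundant of them, cnot6, gave 32612, 7021 and 16283 of these reads in IP and 9190, 14402 and 16110 in input, so the sum leans on that gene. In each of the other classes the shares of IP and input overlapped.

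**Figure D2:**
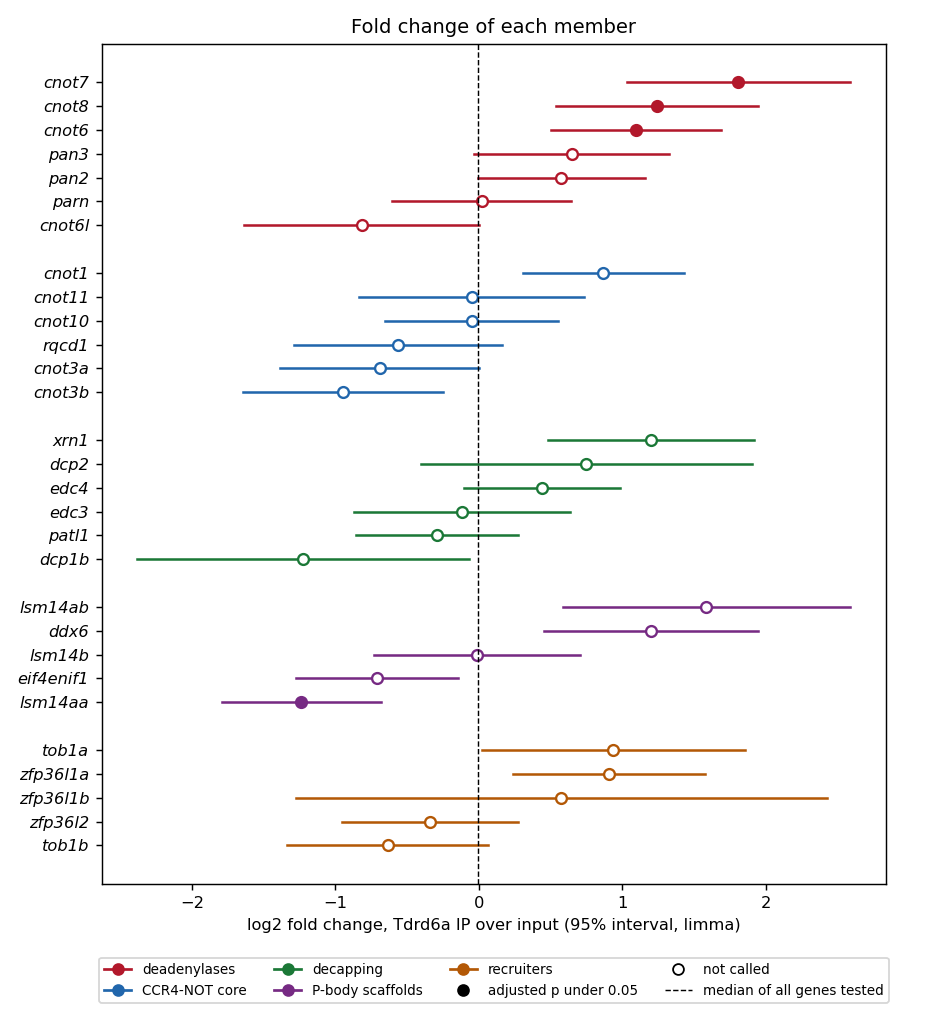
Points give the log2 fold change of Tdrd6a IP over input and bars the 95% interval from limma, with filled points for an adjusted p under 0.05. Only cnot7, cnot8, cnot6 and lsm14aa are filled, and every class holds estimates on both sides of the median of all genes.

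The remaining CCR4-NOT subunits, which have scaffold or regulatory roles, were mostly at or below input. Of the 6 tested, 0 were called by limma, against 4.46% higher and 1.86% lower over all genes tested. An unadjusted p under 0.05 was reached by 2 (21.2% of all genes), and the median log2 fold change was -0.31. edgeR called 0 of them and DESeq2 called cnot1. The exception in direction was cnot1 itself, the scaffold gene, with 8981, 10091 and 9138 normalized counts in IP and 4603, 5055 and 5837 in input. Its IP libraries were all above its input libraries and close to each other (0.87 ± 0.25, limma adjusted p = 0.0694).

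Both copies of cnot3, a subunit of the module that also holds CNOT2, lay below input in every library. The values of cnot3b were 1627, 899 and 1956 in IP and 2405, 2826 and 3014 in input (-0.94 ± 0.32, limma adjusted p = 0.107). Those of cnot3a were 729, 436 and 893 in IP and 1241, 1075 and 900.0 in input, a gap of a few counts between the nearest libraries (-0.69 ± 0.31, limma adjusted p = 0.238). The gene of the CNOT9 subunit, rqcd1, had 302 to 654 normalized counts in IP and 558 to 775 in input, and its estimate was -0.56 ± 0.33 (limma adjusted p = 0.369). The genes of the accessory subunits cnot10 (613 to 850.0 in IP and 640.0 to 909 in input) and cnot11 (173 to 252 in IP and 170 to 290.3 in input) had estimates of -0.05 each, with 95% intervals of -0.65 to 0.55 and -0.84 to 0.74. The signs of these last 2 estimates changed when single libraries were left out.

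Decapping and 5′ to 3′ decay factors had a median log2 fold change of 0.16, which was -0.12 over those with a mean of at least 50 normalized counts and -0.02 with library size only. In the main limma fit 0 of 6 were called, against 4.46% higher and 1.86% lower over all genes tested. An unadjusted p under 0.05 was reached by 2 (21.2% of all genes), and edgeR called 0. DESeq2 called xrn1 alone in this class. The exonuclease gene xrn1 (ENSDARG00000091652) had the highest estimate. It had 8680, 3978 and 4710.1 normalized counts in IP and 2190.1, 2130.3 and 2864 in input, with the groups separate and IP replicate 1 far above the rest (log2 fold change 1.2 ± 0.33, limma adjusted p = 0.0545). With the replicate block, xrn1 was called (limma adjusted p = 0.0379). It was also called with a minimum mean of 50 normalized counts (limma adjusted p = 0.0488), where 649 of all genes were higher and 293 lower.

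At the other end was dcp1b, the gene of a DCP2 activator, with 205, 60.2 and 230 normalized counts in IP and 222, 350 and 498 in input. The value of IP replicate 2 rested on 16 reads, and IP replicate 3 overlapped input (-1.22 ± 0.52, limma adjusted p = 0.208). Without IP replicate 2 its estimate was -0.63. The catalytic subunit itself, dcp2, was scarce, with 60, 19 and 44 reads in IP replicates 1, 2 and 3 and 23, 64 and 34 in input, and its interval was wide (0.75 ± 0.52, 95% interval -0.40 to 1.90). The decapping scaffold gene edc4 had 4022, 3478 and 3844 normalized counts in IP and 2511, 3123 and 2727 in input, a small separation (0.44 ± 0.25, limma adjusted p = 0.340). The enhancer gene edc3 had 217 to 391 normalized counts in IP and 238 to 374 in input, and patl1 had 828 to 1019 in IP and 965 to 1317 in input. The estimates of edc3 and of patl1, whose product bridges deadenylation and decapping, were -0.12 ± 0.34 and -0.29 ± 0.25, and both overlapped input.

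P-body scaffolds and translational repressors had estimates in both directions, and a median of -0.01, which was 0.29 without IP replicate 3 and 0.12 without input replicate 1. Of these 5 transcripts, limma called 1 lower and 0 higher, against 1.86% and 4.46% of all genes tested. An unadjusted p under 0.05 was reached by 4 of the 5 (21.2% of all genes). edgeR called lsm14ab higher, and DESeq2 and the replicate block called ddx6 and lsm14ab higher. Of the 5 classes it was the one in which input libraries varied least and IP libraries most. The median SD of log2 values was 0.58 in IP and 0.11 in input for these 5 transcripts, against 0.48 and 0.38 for all genes tested. The comparison with all genes was not matched for abundance. These 5 transcripts had means of 1061 to 3089 normalized counts, against library medians of 199 to 221 over all genes tested. The transcript of lsm14aa (ENSDARG00000006600) had 799, 590.3 and 683 normalized counts in IP replicates 1, 2 and 3 and 1716, 1666 and 1488 in input. The highest IP library was far below the lowest input library, and the means were 691 ± 105 in IP and 1623 ± 120.0 in input (SD, n = 3 each). The log2 fold change was -1.24 ± 0.25, or 0.425-fold (limma adjusted p = 0.0179), and 0.0134 with the replicate block.

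Its paralog lsm14ab (ENSDARG00000011408) had 4902, 7666 and 1857 normalized counts in IP and 1447, 1314 and 1347 in input. All IP libraries were above input, but they differed widely among themselves, and the estimate of 1.59 ± 0.45 was not called (limma adjusted p = 0.0671). With the replicate block it was called (limma adjusted p = 0.0198). The third family member, lsm14b, overlapped input on both sides, with 1071, 1496 and 668 in IP and 1245, 869 and 1016 in input (-0.01 ± 0.33, 95% interval -0.73 to 0.71).

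The gene of the helicase Ddx6, a core P-body component that joins CCR4-NOT to decapping, had 2668, 3523 and 1378 normalized counts in IP and 1036, 1033 and 989 in input. Input libraries were almost equal and all IP libraries were higher (log2 fold change 1.2 ± 0.34, limma adjusted p = 0.0606). With the replicate block, ddx6 was called (limma adjusted p = 0.0281). The gene of 4E-T, eif4enif1, which binds the cap-binding protein eIF4E and blocks its use, had 1895, 2320 and 1736 in IP and 2746, 3578 and 3404 in input. The groups were separate, with IP below input (-0.71 ± 0.26, limma adjusted p = 0.134).

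Recruiters, RNA-binding or adaptor proteins that bring CCR4-NOT to transcripts, had 0 of 5 members called by limma. Over all genes tested, 4.46% were called higher and 1.86% lower. An unadjusted p under 0.05 was reached by 2 of the 5 (21.2% of all genes). edgeR called 0 of them and DESeq2 called zfp36l1a. The AU-rich element binding factor gene zfp36l1a had 4073, 6824 and 3843 normalized counts in IP and 2113, 3169 and 2409 in input, with no overlap (0.91 ± 0.30, limma adjusted p = 0.107). The adaptor gene tob1a had 2203, 1042 and 3661 in IP and 1085, 876 and 1248 in input. IP replicate 2 lay within the input range there (0.94 ± 0.41, limma adjusted p = 0.223), and the estimate was 1.42 without that library and 0.52 without IP replicate 3.

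The paralog tob1b had 814, 444 and 693 in IP and 868, 1334 and 815 in input, groups that were apart by only 1 normalized count at their nearest (-0.63 ± 0.32, limma adjusted p = 0.287). The zfp36l1 relative zfp36l2 had 2701 to 3906 in IP and 3349 to 5136 in input, with overlap (-0.34 ± 0.28). The scarce zfp36l1b had 15, 3 and 15 reads in IP and 0, 28 and 16 in input, and its log2 fold change of 0.58 ± 0.84 is set by too few reads to give a direction. The class median was the value of that gene, so no weight can be put on it.

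**Figure D3:**
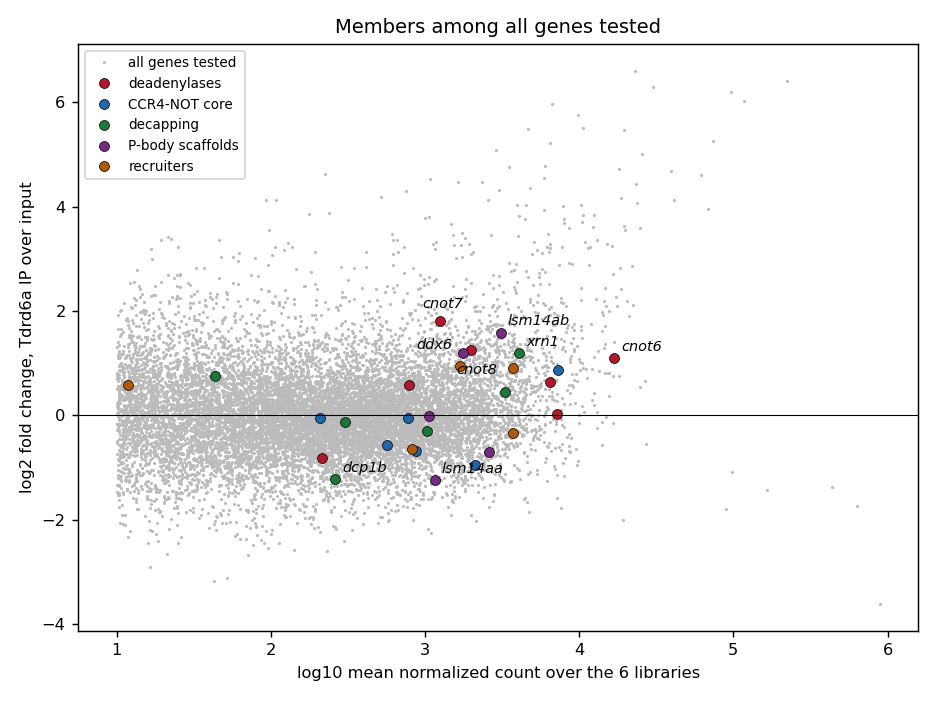
Grey points are the 13265 genes tested and coloured points the 29 members, by class. The x axis is the log10 mean normalized count over the 6 libraries and the y axis the log2 fold change of Tdrd6a IP over input, and all members lie between -1.24 and 1.81, while the whole table runs from -3.62 to 6.61.

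Ratios of paralogs within a library, which hardly depend on how libraries were scaled, were compared for 9 pairs by two-sided exact permutation tests. Libraries were shuffled without regard to replicate number, so the pairing of same-numbered libraries was ignored. With 3 libraries against 3, the smallest p possible is then 0.1, and the smallest adjusted over the pairs was 0.18. In 5 pairs the IP and input ratios did not overlap. They include all the ratios among lsm14aa, lsm14ab and lsm14b, each of which follows from the others. The lsm14 ratios are therefore not separate results, and how often other gene pairs separate in this way was not computed. The widest shift was that of lsm14aa to lsm14ab. The ratio was 0.163, 0.0770 and 0.368 in IP replicates 1, 2 and 3, against 1.19, 1.27 and 1.10 in input. Counts are not corrected for transcript length, so only the shift between IP and input is read here, and every IP ratio was below every input ratio (log2 ratio -2.58 ± 1.13 in IP and 0.24 ± 0.10 in input, SD, n = 3 each, exact permutation p = 0.1, adjusted p = 0.18).

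The ratio of lsm14ab to lsm14b was 4.58, 5.12 and 2.78 in IP and 1.16, 1.51 and 1.33 in input. That of lsm14aa to lsm14b was 0.746, 0.394 and 1.0 in IP and 1.38, 1.92 and 1.46 in input. Relative to the third copy, lsm14aa was thus lower and lsm14ab higher in every IP library than in any input library. Among the Ccr4-type nucleases, the ratio of cnot6 to cnot6l was 152, 226 and 101 in IP and 51.3, 42.0 and 29.03 in input. Ratios to cnot6b were not computed. The ratio of tob1a to tob1b was 2.71, 2.35 and 5.29 in IP and 1.25, 0.656 and 1.53 in input. Each of these 4 pairs had an exact permutation p of 0.1 and an adjusted p of 0.18.

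For the Caf1-type nucleases cnot7 and cnot8, both called higher, the ratio was 0.721, 0.978 and 0.442 in IP and 0.408, 0.491 and 0.474 in input. The groups overlapped, and the mean log2 difference was 0.57 (exact permutation p = 0.3, adjusted p = 0.45). The cnot3a to cnot3b ratio overlapped as well, with 0.448, 0.485 and 0.457 in IP and 0.516, 0.380 and 0.299 in input (p = 0.4, exact). For zfp36l1a to zfp36l1b the groups overlapped and the scarce copy sets the error (p = 0.7, exact). The subunit genes pan2 and pan3 are partners and not paralogs, and their mean log2 ratio was -3.01 ± 0.62 in IP and -2.94 ± 0.11 in input (SD, n = 3 each, exact permutation p = 0.9). Whether reads were shared between near-identical copies was not tested.

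**Figure D4:**
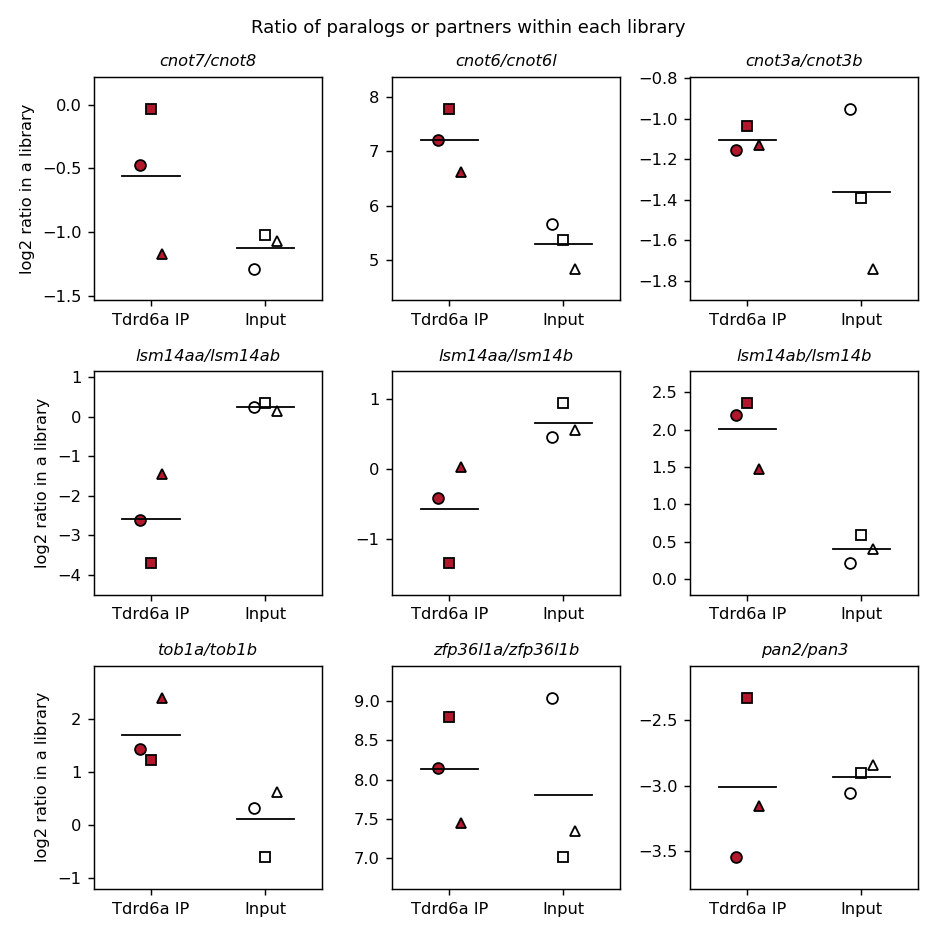
Each panel gives the log2 ratio of 2 transcripts in each library, log2 of (count + 4) over (count + 4), with Tdrd6a IP on the left, input on the right and a line at the mean of 3 libraries. Circles, squares and triangles are replicates 1, 2 and 3. The lsm14aa/lsm14ab panel shows 3 input points close to 0 and 3 IP points between -1.44 and -3.69.

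The 3 IP libraries did not rank the members alike. In 8 of 29 members the order was IP replicate 2, then 1, then 3, the order of ca15b, dazl and dnd, against 20.3% of all genes tested. Among the 10 members whose IP libraries were all above input, 5 had that order, namely cnot6, pan2, ddx6, lsm14ab and zfp36l1a, and among all genes with IP above input in this way 21.0% had it. In cnot8, xrn1 and edc4, by contrast, IP replicate 2 had the lowest of the IP values. Among the 6 members whose IP libraries were all below input, IP replicate 2 was the lowest in 5, and among all genes with IP below input in this way it was the lowest in 40.6%. Each of these orders involves IP replicate 2, the library of lowest depth, and the part of depth in them was not tested.

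Compared within replicate numbers, 12 members were higher in IP in all 3 pairs and 10 were lower in all 3, against 23.6% and 23.0% of all genes tested. edgeR called 2 members higher, cnot7 and lsm14ab, and lsm14aa lower, against 4.43% and 1.91% of all genes. DESeq2 called 8 higher, adding cnot1, ddx6, lsm14ab, xrn1 and zfp36l1a to the 3 that limma called, and lsm14aa lower, against 8.01% and 4.25% of all genes. With library size as the only scaling, limma called cnot7 and lsm14ab higher and lsm14aa lower (3.57% and 2.89% of all genes). With no filter beyond 1 read it called cnot6 and cnot7 higher and lsm14aa lower (2.74% and 0.831%).

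The calls of members changed when 1 library was left out, which also leaves fewer libraries to test, and the cause was not tested. Without any 1 input library limma called 0 members, with adjusted p of 0.0696 to 0.0801 for cnot7, 0.0793 to 0.0942 for lsm14aa, 0.102 to 0.180 for cnot8 and 0.170 to 0.177 for cnot6. The log2 fold changes stayed near those of all 6 libraries, at 1.69 to 1.91 for cnot7, -1.30 to -1.19 for lsm14aa, 1.07 to 1.42 for cnot8 and 1.08 to 1.12 for cnot6. Over all genes, 1.28%, 1.80% and 1.42% were called higher without input replicate 1, 2 and 3, and 0.173%, 0.256% and 0.0754% lower. Without IP replicate 1, cnot6 was the only member called higher (1.10, limma adjusted p = 0.0494), and lsm14aa was still lower, against 2.04% and 0.452% of all genes. There cnot7 (1.48, adjusted p = 0.0566) and cnot8 (0.96, adjusted p = 0.134) were not called. Without IP replicate 2, limma called 8 members higher and 2 lower, against 8.93% and 4.12% of all genes. The members gained were cnot1 (0.82), lsm14ab (1.14), pan3 (0.92), tob1a (1.42) and xrn1 (1.43) on the higher side and eif4enif1 (-0.83) on the lower. Without IP replicate 3, cnot6, cnot7, ddx6 and lsm14ab were called higher, lsm14ab at 2.16, ddx6 at 1.59 and cnot7 at 2.19, and cnot8 was not called (adjusted p = 0.0558). There lsm14aa was lower, and 4.79% of all genes were higher and 1.3% lower.

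The 4 members listed under clone names were not called. They are cnot2 (zgc:162316, -0.35 ± 0.24, limma adjusted p = 0.464) and cnot4b (zgc:63566, -0.41 ± 0.29, 0.459), further CCR4-NOT subunits, the Ccr4-type gene cnot6b (zgc:171797, -0.01 ± 0.29, 0.995), and patl2 (si:ch211-103b1.2, -0.67 ± 0.27, 0.182), a relative of patl1. The values of patl2 were 1576, 2233 and 1998 normalized counts in IP and 3111, 2472 and 3675 in input, so all IP libraries were below input. For cnot2 they were 1537, 1297 and 1700 in IP and 1885, 1857 and 1995 in input, also without overlap.

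Genes of other parts of the RNA decay pathway were read from 8 lists of 86 names. Of the 70 genes tested, limma called 2 higher and 2 lower, with 40 estimates above 0 and 30 below and a median log2 fold change of 0.06. The gene of the exosome helicase Mtr4, skiv2l2, had 10262, 5377 and 5151 normalized counts in IP and 1808, 1901 and 1563 in input, clearly separate groups (1.91 ± 0.31, limma adjusted p = 0.00657). It was the only gene that limma called among 14 of the exosome and Ski complexes, where DESeq2, and limma without IP replicate 2, also called dis3, the gene of an exosome nuclease. skiv2l2 was not called without input replicate 1 (adjusted p = 0.0539) or input replicate 3 (0.0575).

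Among 14 other recruiters of decay factors, the Roquin gene rc3h1b (si:dkey-60b12.1), whose product binds stem-loops in mRNAs, was higher, with 5946, 7196 and 3280.4 normalized counts in IP and 1787, 1690.0 and 2292 in input (1.45 ± 0.32, limma adjusted p = 0.0255). The zinc finger gene cth1, related to zfp36, was lower, with 3816, 4173 and 2928 in IP and 9425, 8299 and 8259 in input (-1.26 ± 0.26, limma adjusted p = 0.0193). Also lower was khsrp, the gene of a protein that binds AU-rich elements, with 952, 1436 and 888 in IP and 2549, 2005 and 2408 in input (-1.11 ± 0.28, limma adjusted p = 0.0381). Of the 14, limma thus called 1 higher and 2 lower, against 4.46% and 1.86% of all genes tested. The call of rc3h1b was lost without IP replicate 1 (limma adjusted p = 0.0841) or any 1 input library (0.087 to 0.128). That of cth1 was lost without any 1 input library (0.0950 to 0.115), and that of khsrp without any library but IP replicate 2 (0.0861 to 0.159). DESeq2 and the replicate block also called cpeb1a higher and btg3 lower, and the block cpeb1b higher. Their estimates with group as the only term were 2.49 ± 0.82, -1.10 ± 0.40 and 1.04 ± 0.46. The scarce cpeb1a had 30.6, 41.4 and 8.4 normalized counts in IP and 0, 2.9 and 0 in input. Its mean was 26.8 in IP and 0.97 in input, so cpeb1a reached the minimum mean for testing only through its IP libraries. The values that admitted cpeb1a to testing are thus the same ones that place it higher, and its estimate and calls carry that selection.

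In the other 6 lists limma called 0 genes, against 4.46% higher and 1.86% lower over all genes tested. An unadjusted p under 0.05 was reached by 3 of 7 genes of the Lsm ring, which binds shortened tails, 2 of 9 for nonsense-mediated decay, 1 of 5 poly(A)-binding, 4 of 9 cap-binding, 1 of 6 other deadenylases and decay enzymes and 2 of 6 miRNA effectors, beside 21.2% of all genes tested. The smallest p in each belonged to lsm2 (smx5, 2.22 ± 0.57, limma adjusted p = 0.0518), the decay factor gene upf3b (-2.20 ± 0.58, 0.0562), pabpn1 (0.72 ± 0.29, 0.186), eif4ebp3l (-1.41 ± 0.44, 0.0857), the Nocturnin gene ccrn4la (-2.53 ± 0.78, 0.0870) and ago4 (1.09 ± 0.29, 0.0517). In IP replicate 2, ccrn4la had 3.8 normalized counts, the value of 1 read, and without that library the estimates were -1.71 for ccrn4la, -1.48 for upf3b and 1.66 for lsm2. Without IP replicate 3 that of lsm2 was 2.94. With a minimum mean of 50 normalized counts, limma called lsm2 (adjusted p = 0.0477) and ago4 (0.0468) higher, beside 649 higher and 293 lower over all genes. edgeR called lsm2 alone in these 6 lists, against 4.43% higher and 1.91% lower over all genes tested. DESeq2 called lsm2, lsm4, ccrn4la, eif4ebp3l, upf3b, ago2 and ago4 in them. With the replicate block limma called 7 genes higher and 7 lower over the 70, against 6.97% and 3.52% of all genes tested. Among the genes it called were lsm2 (limma adjusted p = 0.0130), ccrn4la (0.0195), eif4ebp3l (0.0279) and upf3b (0.0373). The block also called lsm4 lower (log2 fold change -1.46) and lsm7 (1.29) and smg1 (1.09) higher. DESeq2 also called 7 higher and 7 lower over the 70, against 8.01% and 4.25% of all genes tested.

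**Figure D5:**
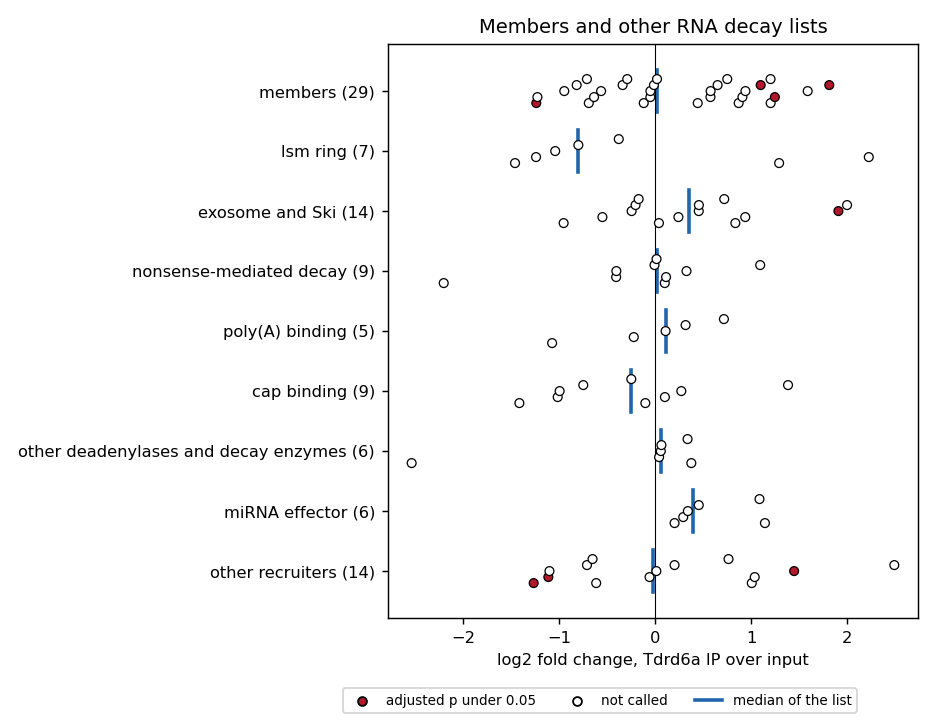
Each point is 1 tested gene, placed by its log2 fold change of Tdrd6a IP over input and grouped by list, with the number of genes in brackets. Red points had an adjusted p under 0.05 and blue lines give the median of each list, from -0.80 for the Lsm ring to 0.40 for miRNA effectors, with the members at 0.02.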

How the data were processed

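Per the labels' protocols, Trizol extracts went through NuGEN Ovation amplification to 50 bp single-end reads. TopHat, DESeq and the Zv9 assembly are named without versions, per the submitters' processing notes. How reads were counted, on which annotation and with which strand setting is not given in the sources used here, and reads of antisense pairs cannot be separated. The authors deposited a read-count signal, that is, counts per gene divided by 1 constant per library (normalized counts). In each library, at least 99.99% of values above 0 lay within 0.06 of a whole multiple of the value of 1 read. This gave back whole reads.

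The main test was limma 3.58.1 (abundance trend, robust, R 4.3.3) on log2(normalized count + 4), two-sided, group as the only term, with Benjamini-Hochberg adjustment over 13265 genes of mean at least 10. Because of the added 4, log2 fold changes of scarce genes are too small. On recovered reads edgeR 4.0.16 called 588 genes higher and 253 lower; DESeq2 1.42.0 was also run. Other alternatives were the scaling, filter, pseudocount, replicate block and leaving out each library. Same-numbered libraries deviated together in all 3 pairs (correlations of 0.294 to 0.305). The numbers in the labels were therefore taken to pair them in the replicate block and in comparisons within replicate numbers. The main test, edgeR, DESeq2 and the permutation tests did not use this pairing. Paralog ratios used scipy 1.17.1; figures used matplotlib 3.10.9.

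Members, classes and lists were chosen with earlier results of these data known. Statistics are given for called members, for the extremes of each class and, where values are informative, for the rest; in the other decay lists, called genes are named, or else the gene of smallest p. Names were matched by the table's symbol, then by gene identifier and then by RefSeq synonym (assembly GRCz12tu). Among 86 names of the decay lists, 70 genes were tested. Zv9 coordinates and sequences were not used here.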

Additional observations from a re-analysis of the deposited data

How the results depend on the processing

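Over 15 alternative settings, the estimates of cnot7, cnot8, cnot6 and lsm14aa kept their sign. Members called higher numbered 3 as reported, 5 with the replicate block, 8 with DESeq2 and 0 to 8 when 1 library was left out, and members called lower 1 as reported and 0 to 2 when 1 library was left out. Over all genes, 591 were higher as reported, 925 with the replicate block, 1063 with DESeq2 and 170 to 1185 when 1 library was left out. The lower count was 247 as reported, 467 with the replicate block, 383 with library size only and 564 with DESeq2. It was 155 when genes needed only more than 1 read over the 6 libraries and 10 to 547 when 1 library was left out. The cause of these moves was not tested. Library size only moved the median of all genes to -0.18, where cnot6 (adjusted p = 0.0522) and cnot8 (0.0708) were not called and lsm14ab was (0.0439). edgeR also did not call cnot6 (0.0615) and cnot8 (0.0509) and called lsm14ab (0.0420), and with no filter beyond 1 read cnot8 (0.0631) and khsrp (0.0574) were not called.

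Some estimates near 0 changed sign, as did the medians of the decapping and scaffold classes and, without input replicate 1, that of the recruiters (-0.18). For parn it was -0.17 with library size only, -0.016 with TMM scaling and -0.21 to 0.13 when 1 library was left out, and for lsm14b 0.0056 with edgeR, 0.019 with DESeq2 and -0.29 to 0.29. For cnot6b it was 0.0077 with DESeq2 and -0.21 to 0.22. When 1 library was left out, the ranges were -0.19 to 0.10 for cnot10, -0.21 to 0.19 for cnot11, -0.35 to 0.067 for edc3, -0.18 to 1.13 for zfp36l1b and -0.41 to 0.19 for the log2 ratio pan2/pan3. The log2 ratio zfp36l1a/zfp36l1b was -0.22 with a pseudocount of 1 and -0.063 to 0.95 when 1 library was left out. Among the members, depth limits dcp2, dcp1b and zfp36l1b most, with 3 to 19 reads in IP replicate 2.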
